A study of Arabidopsis thaliana with 2 samples.

Results

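The chloroplast genome of Arabidopsis thaliana carries the genes for the core subunits of the photosynthetic complexes, and 43 of those genes are described here. They were chosen by name: chloroplast genes of photosystem I (psa), photosystem II (psb), the cytochrome b6f complex (pet), the chloroplast NAD(P)H dehydrogenase-like complex (ndh) and the ATP synthase (atp), together with rbcL. Each has 1 probe set that the platform annotation gives to that gene alone. They are 43 of 13356 genes with such a probe set. The chloroplast genome holds 44 genes of these names, and the one left out, ndhB, lies in the inverted repeat, where its probe set is shared by both copies.

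RNA came from whole seedlings of 2 genotypes, aged 2 weeks and grown at 22 °C on sucrose medium in days of 16 h light and 8 h dark. One was the wild type of the cultivar Columbia-0. The other was OE-N6, a transgenic line in the Columbia-0 background that overexpresses AT4G16790, a gene the labels name NHRGP; the promoter of the transgene is not given in the sources used here, and OE-N6 is 1 line. There was 1 Affymetrix ATH1 array for each genotype, so no value has a replicate, no test between genotypes was possible, and every ratio compares those arrays. Signals are given in pairs, the wild type first and OE-N6 second, and log2 ratios are OE-N6 over wild type.

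Photosynthetic electron transport starts at photosystem II, which splits water, passes through the cytochrome b6f complex to photosystem I, and ends in reduced ferredoxin and NADP. The proton gradient it builds drives the ATP synthase, the NDH complex returns electrons from ferredoxin to the plastoquinone pool, and Rubisco fixes carbon dioxide in the stroma. Each of these complexes is a mosaic of subunits encoded in the chloroplast and in the nucleus. The chloroplast genes encode the reaction centres and much of the membrane cores. They also encode subunits outside the membrane, such as the ATP synthase alpha, beta and epsilon subunits, peripheral NDH subunits and the Rubisco large subunit. Nuclear genes supply many of the other subunits. Chloroplast genes are commonly transcribed in clusters whose long transcripts are then cut into smaller ones.

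The overexpressed gene and organ markers served as a check of the labels. The AT4G16790 signal was 5171 in OE-N6 and 91.1 in the wild type, and as signals below a floor of 112 were raised to that floor, the difference is at least 46.2-fold. The leaf markers with a probe set of their own, RCA (Rubisco activase) and PRK (phosphoribulokinase), had log2 ratios of 0.034 and 0.043. The root marker PYK10, a beta-glucosidase, had 0.048, EXPA18, a root-hair expansin, had 0.62 from signals of 188 and 290, and EXPA7, another root-hair expansin, which did not pass the signal filter, had 0.34 from 155 and 196. Leaf and root markers had signals on both arrays, as whole seedlings hold both organs. Summed over the 2 leaf markers the signals were 30421 and 31232, and over the 3 root markers, nearly all of it from PYK10, 16313 and 16998. The other 6 leaf and 5 root markers on the lists lack a probe set that the annotation assigns to them alone.

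Most chloroplast photosynthesis genes had slightly higher signals in OE-N6, and few differed by much. Of the 43 genes, 39 passed the filter on low signal, a mean of both arrays of at least 192, and all 39 had signals above it on each array. Whole-seedling RNA cannot separate more RNA per cell from more cells of a type. Among the 39, 32 had a higher signal in OE-N6 and 7 a lower one, where 46.8% of the 5862 genes past the filter were higher. The median log2 ratio of the 39 was 0.16, or 1.12-fold, beside -0.021 over all genes past the filter, and 28 of the 39 lay within 1.2-fold. Scalings that can change with signal lowered these values: under quantile scaling 26 of the 39 were higher, with a median of 0.084, which is 0.087 above that of all genes, and under loess scaling 24 were higher, with a median of 0.079, which is 0.078 above it. The gap in the deposited signals was 0.18. At 1.5-fold, 2 members were higher (psbB and ndhE), against 2.44% of all genes, and 0 were lower, against 2.41%. At 2-fold, ndhE alone was higher, where the share of all genes was 0.546%, and no member was lower, where it was 0.495%.

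**Figure D1:**
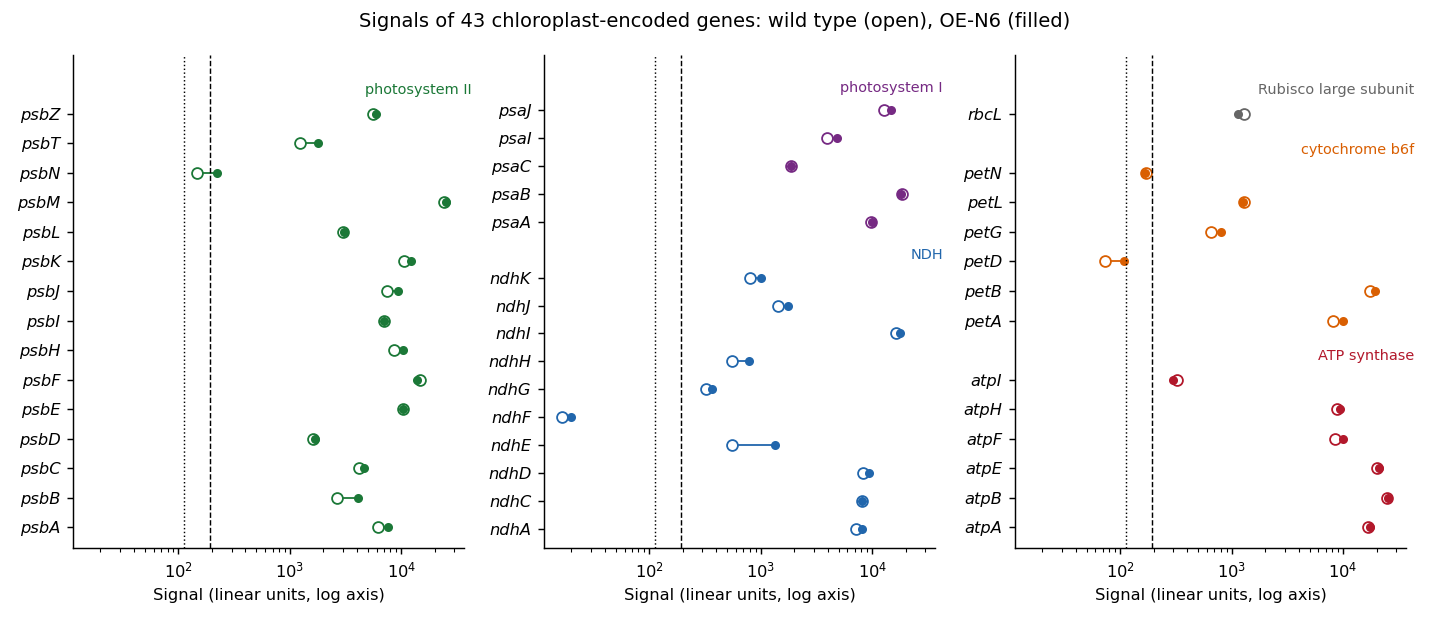
Signal of each of the 43 genes on the wild-type array (open circle) and the OE-N6 array (filled circle), on a log axis in linear signal units, grouped by complex; the dotted line is the floor (112) and the dashed line the filter (192). The circles nearly coincide for most genes, ndhE has the longest connecting line, and psbN, petN, petD and ndhF lie at or below the dashed line on at least 1 array.

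These small differences have to be read against the arrays' own controls. The hybridisation spikes, bacterial and phage transcripts added just before hybridisation, averaged 0.086 on the log2 ratio scale (SD across 18 probe sets 0.17), and the 22 probe sets of spikes added during labelling averaged 0.10 (SD 0.18). Bright probe sets outside the chloroplast also lay above 0. Of 81 genes not encoded in the chloroplast with a mean signal of at least 8000, 52 (64.2%) were higher in OE-N6, with a median of 0.074, while 16 of the 19 members in that range were higher, with a median of 0.090. Among genes of at least 2000 the medians were 0.033 for 651 such genes and 0.12 for 27 members. Control probe sets for actin, GAPDH and ubiquitin compare the 3' end of the transcript with its 5' end or its middle. That ratio was higher in OE-N6 in 9 of 10 pairs of probe sets, and lower for a second GAPDH set, at 0.887 and 0.77. The largest was actin 3' over 5', at 7.52 and 9.84, and a second actin set had 1.61 and 2.06. Pairs of the same set share a 3' probe set, so the 10 are not independent. The part these control differences play in the members' ratios was not tested.

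**Figure D2:**
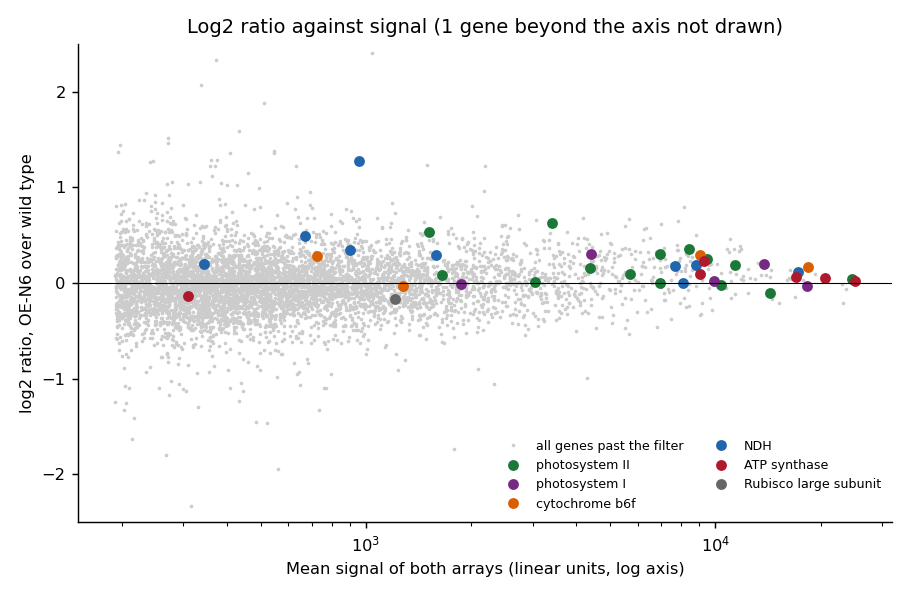
Log2 ratio of OE-N6 over wild type against the mean signal of both arrays, in linear units on a log axis, for all genes past the filter (grey) and for the 39 members by complex. The members reach up to the brightest signals on the arrays, where grey and coloured points alike lie mostly a little above 0, and ndhE stands at 1.28.

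Photosystem II had the most members, 15, of which 14 passed the filter. Of these 12 were higher in OE-N6 and 2 lower. The log2 ratios ran from -0.10 to 0.62 around a median of 0.13. The count of higher genes was 10 under quantile, 9 under loess and 8 under spike scaling, with medians of 0.093, 0.094 and 0.040. Of all genes past the filter 46.8% were higher in the deposited signals. The share was 49.5% under quantile, 50.3% under loess and 33.3% under spike scaling. The 4 genes for the large chlorophyll-binding proteins were all higher. The signal of psbB, which encodes the inner antenna protein CP47, was 2677 in the wild type against 4126 in OE-N6, 1.54-fold higher. For psbA, which encodes the D1 reaction centre protein that is replaced most often under light, it was 6209 and 7675, 1.24-fold higher. The partner genes were closer to equal. The D2 protein gene psbD had 1601 and 1695, and psbC, for the other inner antenna protein CP43, had 4142 and 4621, which are log2 ratios of 0.082 and 0.16. The value of psbD went below 0, to -0.0031, when the arrays were scaled to the hybridisation spikes.

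The small photosystem II subunits were more mixed. These are membrane proteins of a single helix or little more that help to assemble the complex and its dimers. The highest ratio among them belonged to psbT, which is encoded next to psbB, with signals of 1237 and 1793 (1.45-fold). The gene psbJ had 7388 and 9429 (1.28-fold), psbH, for a phosphorylated subunit, 8674 and 10309 (1.19-fold), and psbK 10607 and 12108 (1.14-fold). Near equality were psbZ at 5526 and 5895, psbM at 24324 and 25015, psbL at 3027 and 3052, and psbI at 6933 and 6950, the last with a log2 ratio of 0.0036. The psbE and psbF genes, which encode the alpha and beta subunits of cytochrome b559, were both lower, at 10448 and 10281 for psbE and 14860 and 13851 for psbF. The log2 ratio of psbF, -0.10, was the lowest of the complex. The gene psbN, whose product assists the assembly of photosystem II and is not part of the finished complex, did not pass the filter, with 148 and 224.

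Photosystem I genes were nearly equal between the arrays, apart from the genes of its smallest subunits. All 5 passed the filter, and 3 were higher and 2 lower, where 46.8% of all genes past the filter were higher. Their median log2 ratio of 0.026 turned negative under quantile, loess and spike scaling. The reaction centre genes psaA and psaB had signals of 9842 and 10023, and of 18558 and 18127, ratios of 0.026 and -0.034 on the log2 scale. The gene psaC, whose product carries the terminal iron-sulphur clusters, had 1878 and 1868. By contrast psaI had 3930 and 4862 (1.24-fold higher) and psaJ 12784 and 14686 (1.15-fold higher), both small membrane subunits at the rim of the complex.

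The cytochrome b6f complex showed a similar mixture among 6 members, of which 4 passed the filter. Cytochrome f, encoded by petA, had 8140 and 9955, a log2 ratio of 0.29, and cytochrome b6, encoded by petB, had 17326 and 19448, a log2 ratio of 0.17. Of the small subunits petG had 653 and 796 (log2 ratio 0.28), whereas petL had 1289 and 1261 (-0.032). The median of the 4 was 0.23, beside 0.15 under loess and 0.14 under spike scaling. Without the filter, which adds petN and petD, it was 0.083. That value counts petD as a log2 ratio of 0, because both of its signals were raised to the floor, so it is no measured drop. Neither petN, with 172 and 168, nor petD, the gene of subunit IV, passed the filter; petD had 73.1 and 108, both under the floor, so no ratio is given for it.

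The NDH complex was the only one in which every member past the filter was higher in the deposited signals, 9 of 9, with a median log2 ratio of 0.20. Over all 39 members 82.1% were higher, and over all genes past the filter 46.8%. The 24 other chloroplast genes past the filter were all higher too, with a median of 0.30. Quantile, loess and spike scaling each left 8 of 9 higher, since ndhC fell below 0, and spike scaling lowered the median to 0.11. The gene ndhE, which encodes a small membrane subunit corresponding to NuoK of bacterial complex I, gave signals of 556 and 1350. OE-N6 was thus 2.43-fold higher, a log2 ratio of 1.28, which stayed between 1.19 and 1.302 under all alternatives. Without ndhE the other 38 members had a median of 0.14 and a highest value of 0.62, so ndhE lay above every other member by a wide margin.

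The remaining membrane-arm genes were far closer to equality. These encode the proton-pumping part of the complex. The signals were 7200 and 8175 for ndhA, 8199 and 9372 for ndhD, 321 and 368 for ndhG, and 8071 and 8087 for ndhC, with log2 ratios between 0.0029 and 0.20. The largest membrane subunit gene, ndhF, had signals of 16.4 and 19.8, far under the floor. The shared probe set of ndhB gave 55.3 and 43.4, also under the floor, and neither gene gave a usable ratio.

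The peripheral NDH subunits, which hold or lie near the electron-carrying iron-sulphur clusters, had a median of 0.32 over 4 genes. The highest was ndhH, with 557 and 782 (1.403-fold), followed by ndhK with 794 and 1010 (1.27-fold) and ndhJ with 1423 and 1743 (1.22-fold). These 3 kept log2 ratios of at least 0.20 under each of the 5 scalings. The ferredoxin-like subunit gene ndhI had 16502 and 17901, 1.08-fold higher. The 5 membrane-arm genes had a median of 0.19, and with 1 array per genotype the difference between the arms was not tested.

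Signals of the ATP synthase genes were close to equal. Of the 6 genes 5 were higher, where 46.8% of all genes past the filter were, and the median log2 ratio was 0.060. The direction of this median depended on the scaling, and the median was -0.029 under loess and -0.025 under spike scaling. The catalytic beta subunit gene atpB had 24990 and 25356, the alpha subunit gene atpA 16624 and 17389, and the epsilon subunit gene atpE 20140 and 20925. The membrane-embedded part showed both ends of the range. The gene atpF, for the stalk subunit b, had 8534 and 10021, and atpH, for the proton-carrying ring, 8739 and 9305. At the other end atpI, for the subunit a that channels the protons, had 325 and 295, a log2 ratio of -0.14.

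The large subunit of Rubisco, rbcL, had the lowest ratio of the 39 members in the deposited signals; under loess scaling psbF was lower. Its signals were 1281 (wild type) and 1143 (OE-N6), a log2 ratio of -0.16, inside the range of the hybridisation spikes. It was below 0 under all alternatives, between -0.25 and -0.15.

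**Figure D3:**
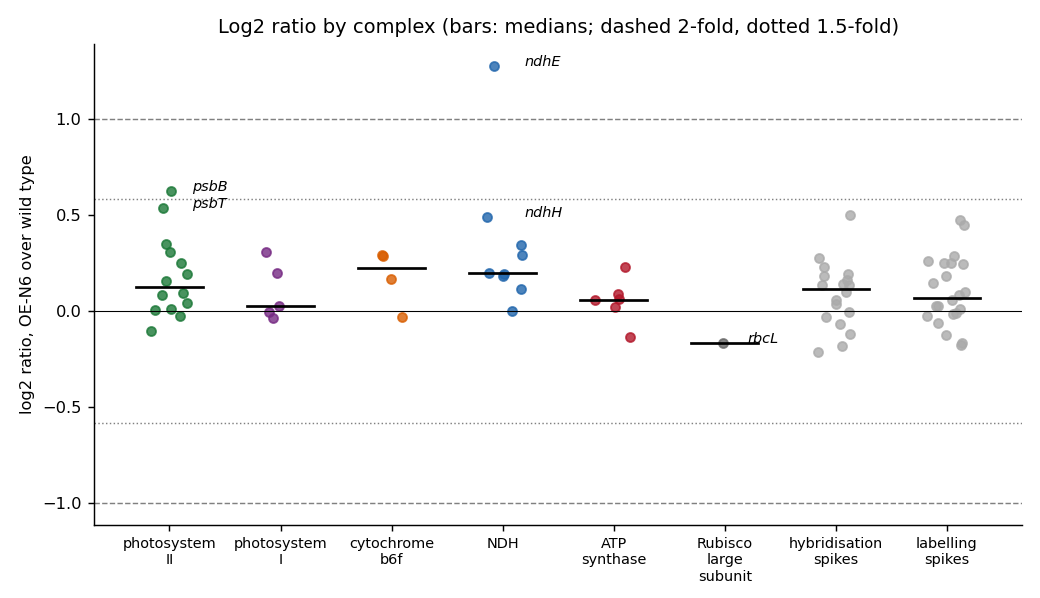
Log2 ratio of OE-N6 over wild type for each member past the filter, by complex, beside the 18 hybridisation and 22 labelling spikes; black bars are medians, dashed lines 2-fold and dotted lines 1.5-fold. Of the 39 members 36 lie inside the range of the hybridisation spikes (-0.21 to 0.50), and ndhE, psbB and psbT lie above it. The highest spike probe set alone sets the upper end, and the next highest stands at 0.28. Members such as psbA and ndhH lie between those values.

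Signals of different probe sets depend on probe binding as well as on transcript amount, so they were not set against each other as levels. As readings, the members past the filter spanned from 295 (atpI in OE-N6) to 25356 (atpB in OE-N6). Of the 298 probe sets with a mean of at least 8000, 19 were members and 5 other chloroplast genes. Across the 39 members the log2 ratio was weakly and negatively related to the log2 mean signal (Pearson r = -0.28, Spearman rho = -0.26, across genes of the same arrays), and without ndhE r was -0.18 and rho -0.21. The 13 brightest had a median of 0.055, the 13 of middle signal 0.19 and the 13 dimmest 0.20. Gene length was unrelated to the ratio (r = -0.021).

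Differences in ratio between neighbouring genes of the chloroplast genome were mostly small, with larger steps at some places. As 28 of the 39 members lay within 1.2-fold, small differences need not mark neighbours. Pairs of genes that are not neighbours were not compared. Over 42 neighbouring pairs the median absolute difference was 0.1, below the SD across the hybridisation spikes (0.17). With 1 array per genotype, no difference between neighbours was tested. In the psbB cluster, psbB (0.62), psbT (0.54), psbH (0.25) and petB (0.17) were all higher, in falling order along the cluster, and the 4 stayed above 0 under all 5 scalings. The steps from psbB to psbT (0.088) and from psbH to petB (0.082) were below that SD, and the step from psbT to psbH was larger. The dim psbN, which lies between psbT and psbH on the opposite strand, had a log2 ratio of 0.59, and petD at the end of the cluster was under the floor. In psbD, psbC and psbZ the ratios were 0.082, 0.16 and 0.093, and in atpB and atpE 0.021 and 0.055. These clusters, like psaA and psaB (0.026 and -0.034), varied by less than 0.1 within themselves, whereas the others held larger steps.

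The run of 8 adjacent genes from ccsA to ndhH, counted here as 1 cluster, held the largest step. There psaC (-0.0073) lies directly beside ndhE (1.28), and ndhG (0.20) follows on the other side. The gene ccsA, for a cytochrome c assembly protein, had 0.049, and ndhH at the far end had 0.49. In the cluster of atp genes, atpI (-0.14) is followed by rps2, a ribosomal protein gene with 0.66, a step of 0.80. In psbE, psbF, psbL and psbJ the ratio was -0.023, -0.10, 0.012 and 0.35, so psbJ differed from the other 3. Similar steps separated ndhC (0.0029) from ndhK (0.35), and petL (-0.032) from petG (0.28). The psaI gene (0.31) shares its cluster with ycf4 (0.21), cemA (0.022) and petA (0.29).

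Pairs were formed from genes next to each other in the order of protein-coding genes, so other genes may lie between them. Across all 42 such pairs in which both passed the filter and at least 1 was a member, the log2 ratios were nearly unrelated (Pearson r = 0.042, Spearman rho = 0.22). Without the pairs of ndhE r was 0.20 over 40. In the 28 pairs from the same cluster r was -0.043 and rho 0.0, and in the 14 others r was 0.296 and rho 0.521. The median absolute difference was 0.13 in the 28 pairs from the same cluster and 0.061 in the 14 others. Both medians are below the SD across the hybridisation spikes (0.17). The pairs overlap, since each gene has up to 2 neighbours, and all come from the same arrays. The clusters follow those known for land plants, except that ccsA was counted with its neighbour ndhD, and they were not measured here.

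**Figure D4:**
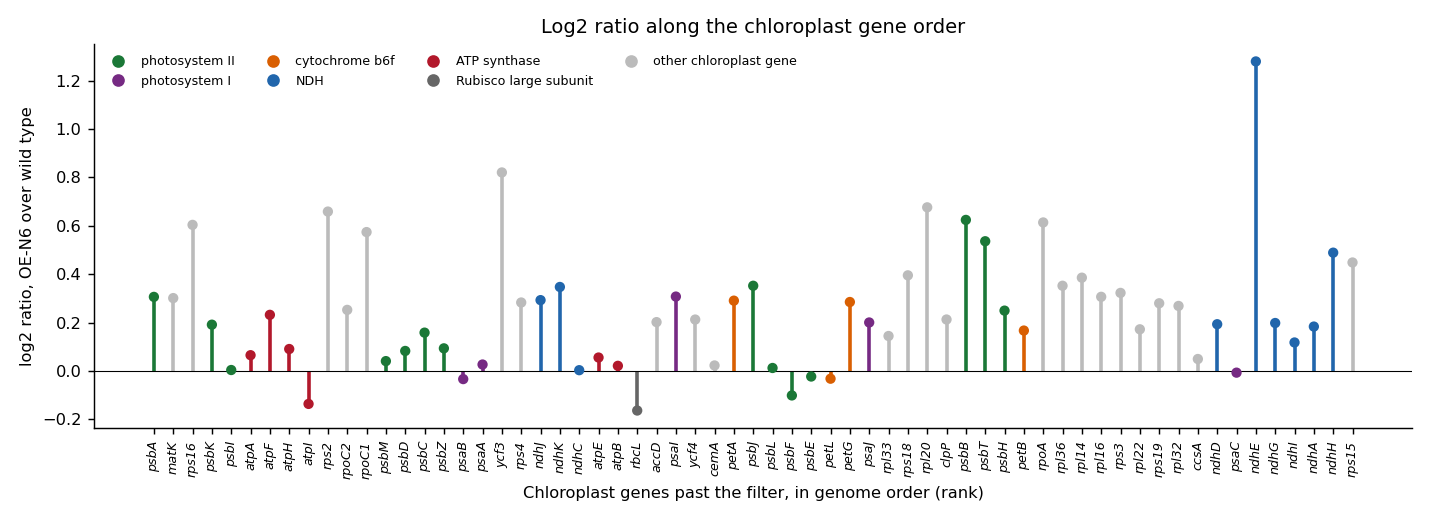
Log2 ratio of OE-N6 over wild type for the chloroplast genes past the filter in their order along the genome (rank, not distance), with members coloured by complex and other chloroplast genes in grey. The highest bar is ndhE, whose neighbours psaC and ndhG stand at -0.0073 and 0.20, and rbcL and atpI are the lowest.

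The other chloroplast genes past the filter, 24 in number, were all higher in the deposited signals, with a median log2 ratio of 0.30, beside 0.16 for the photosynthesis genes. Of these 24, 5 were at least 1.5-fold higher, beside 2 of 39 members and 2.44% of all genes past the filter. Of all genes past the filter 46.8% were higher. Under quantile scaling the medians were 0.26 and 0.084, and under loess scaling 0.27 and 0.079. The difference was not tested, since each median comes from the same pair of arrays.

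Nuclear genes of the same complexes had ratios on both sides of 0. Of 78 nuclear genes listed for these complexes, their antennae and electron carriers, 14 passed the filter with a probe set of their own. Of these 6 were higher and 8 lower, with a median of -0.011. Of all genes past the filter 46.8% were higher, with a median of -0.021, so the nuclear genes lay near that share. None reached 1.5-fold, where 2.44% of all genes were at least 1.5-fold higher and 2.41% lower. For NDH, NdhL had 0.051, NdhN -0.015, NdhS, which forms the ferredoxin-binding site, -0.14, and AT2G04039, listed as NdhV, -0.29. The median of these 4 was -0.076 and that of the 9 chloroplast NDH genes 0.20. In the ATP synthase, ATPC1, the regulatory gamma subunit, had -0.17, and ATPC2 did not pass the filter.

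Among the other nuclear partners, PSAE-1 (0.11) and PSAN (0.16) of photosystem I were higher and the photosystem II genes PSBY and PSBW had 0.085 and -0.051. The minor antenna genes LHCB4.1, LHCB4.2 and LHCB4.3 had -0.0062, -0.18 and -0.25. The cytochrome b6f gene AT2G26500, which encodes PetM, had 0.095, and RCA of the Rubisco list 0.034. Under spike scaling 3 of the 14 were higher and the median was -0.096, where 33.3% of all genes were higher with a median of -0.11. Of 20 listed nuclear factors of chloroplast transcription, such as the sigma factors, only the polymerase gene AT5G15700 has a probe set assigned to it alone, and both of its signals (16.4 and 87.4) were under the floor.

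**Figure D5:**
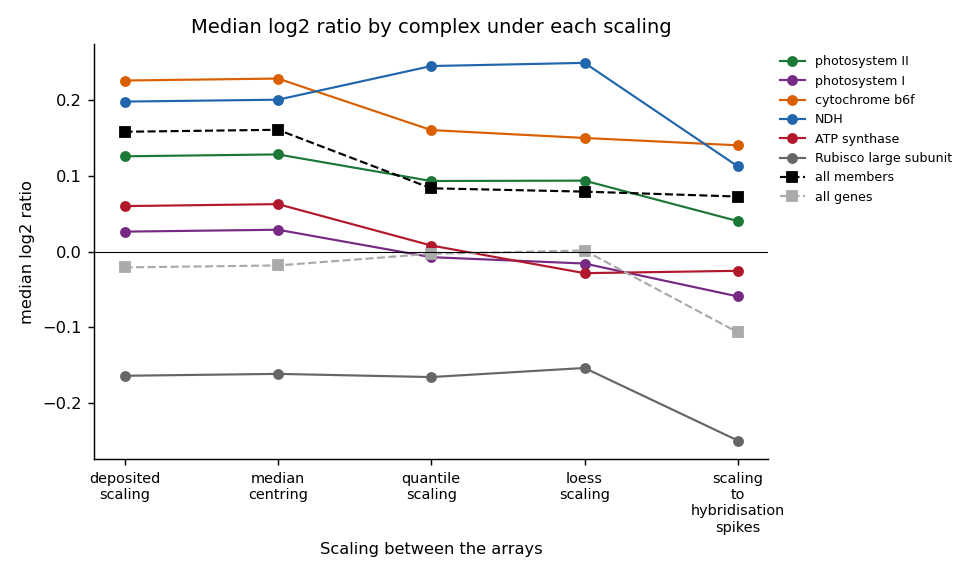
Median log2 ratio of OE-N6 over wild type for each complex, all members and all genes past the filter (y axis) under 5 ways of scaling the arrays to each other (x axis). Medians of photosystem II, NDH, cytochrome b6f and all members stay above 0 throughout. Photosystem I and ATP synthase medians lie near 0 and change sign, and rbcL stays below 0.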

How the data were processed

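Total RNA (6 µg) was labelled with biotin by the standard Affymetrix procedure, per the labels' protocols. The authors deposited 1 linear signal intensity per probe set. The submitters' processing notes name MAS5, without version or settings. Both deposited columns have a mean of 500 once 2% is trimmed from each end, so each array carries 1 scaling factor, and a shift common to most transcripts would not be seen. How chloroplast transcripts, which mostly lack stable poly(A) tails, were primed is not given in the sources used here.

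Of 22810 probe sets 64 are controls, 13513 have 1 gene, 503 several and 8730 no gene named here. Names were matched by gene identifier to RefSeq (TAIR10.1, used for names and gene order only; 13436 probe sets matched). No build is given for the array files, so no coordinates are printed. Every member has 1 probe set. Genes elsewhere with several were represented by the one with the highest mean signal. The filter was the median of non-control probe sets (192) and the floor the 40th percentile of all signals (112). Members were named with signals on both arrays; of the nuclear lists every gene past the filter was named. Among chloroplast genes that are no members, only those in a cluster with a member were named. Members and lists were chosen with earlier results of these data known. With 1 array per genotype the number of arrays limits the precision and no p-value was computed.

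Results were recomputed after quantile scaling, loess scaling and median centring of the arrays, with the filter removed or raised to the 75th percentile, with the floor removed or lowered to the 25th, and with a gene's probe sets averaged. Scaling to the hybridisation spikes was added after seeing the data. The procedure was tested on simulated data with planted changes well above 2-fold. That test does not cover differences as small as those of most members. Python 3.11.15, numpy 2.4.6, pandas 2.3.3, statsmodels 0.14.6 and matplotlib 3.10.9 were used.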

Additional observations from a re-analysis of the deposited data

How the results depend on the processing

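The counts at 2-fold (1 higher, 0 lower) and the 0 members at least 1.5-fold lower were the same under every alternative run. The number at least 1.5-fold higher was 2, 3 without the filter and 1 under spike scaling. The median over members stayed between 0.073 and 0.16. The number above 0 lay between 23 of 39, under spike scaling, and 33 of 43, without the filter. It was 26 of 39 under quantile and 24 of 39 under loess scaling. Of all genes 49.5% were above 0 under quantile, 50.3% under loess and 33.3% under spike scaling. Without the filter 26.1% were, since genes under the floor on both arrays count as 0. Spike scaling put the median of all genes at -0.11 by a shift common to all genes. The members' median exceeded that of all genes by 0.18 in the deposited signals, 0.087 under quantile and 0.078 under loess scaling. The photosystem I median was -0.0074 under quantile, -0.0158 under loess and -0.0592 under spike scaling, and the ATP synthase median -0.0285 under loess and -0.0254 under spike scaling. In all, 22 of 39 members were higher and 7 lower under all 5 scalings; atpA, atpB, atpE, atpH, ndhC, psaA, psbD, psbI, psbL and psbM changed sign or reached 0. The cause was not tested. No single-gene value moved by more than the SD of the hybridisation spikes. No paired analysis was possible because there is no second array of either genotype. Members under the floor on both arrays (petD and ndhF) have no usable ratio.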
